A study of Apis mellifera with 79 samples.

Results

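Kr-h1 (Kruppel homolog 1, gene ID GB43022) was followed through every RNA sequencing library of honey bee worker brains in a field study and an apiary experiment on neonicotinoid insecticides. It is 1 of the 11525 genes with a value in at least 1 of the 4 deposited expression tables, and it was measured in all 79 libraries. The gene was picked because the study named it among 16 transcription factors that differed in field foragers, so its field forager difference is a description here and carries no test. Values are log2 CPM, the base-2 logarithm of the share of a library's reads that fell on the gene.

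In the field study, exposed colonies stood beside corn grown from neonicotinoid-treated seed and unexposed colonies stood at least 3 km from agriculture, with all exposed colonies at 1 site and all unexposed colonies at another. Each field library was a pool of 5 brains from 1 colony, with 5 exposed and 5 unexposed forager pools and 5 exposed and 4 unexposed nurse pools. In the apiary experiment, exposed colonies C21, C23 and C28 were fed pollen patties holding clothianidin, a neonicotinoid, and unexposed colonies C25, C26 and C27 were fed patties without it. The dose started at 4.9 ppb and was lowered to 2.0 ppb, and bees were collected on day 30. Single brains were sequenced there, from 5 foragers and 5 nurses of each colony, which gave 15 bees for each caste and exposure. Caste was assigned by behaviour (returning pollen carriers as foragers, brood-tending bees as nurses), and the bees' ages were not given. In the field study exposure and site cannot be told apart, and in the apiary experiment exposure was given to whole colonies, so bees of a colony share their feeding. A difference in a whole brain can come from fewer cells that express a gene or from less RNA per cell, and these libraries cannot tell them apart. The tables list gene IDs without names, so the brain label was not checked against neuron or glia markers.

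Kr-h1 encodes a zinc finger transcription factor that is switched on by juvenile hormone through its receptor Met, as worked out mainly in Drosophila and beetles, and in Drosophila it also acts with the ecdysone response during metamorphosis and in the growth of axons. In adult honey bee workers juvenile hormone in the blood is low in nurses and high in foragers. Kr-h1 is used as a readout of this hormone in other insects, and its level in the bee brain is also known to respond to queen pheromone. Juvenile hormone was not measured here, so Kr-h1 is not read as a hormone level below.

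Libraries held 10.46 to 45.09 M reads in the listed genes, with a median of 26.36 M. Kr-h1 was carried by 63 reads in the library with the fewest and by 1377 reads in the one with the most, so counting error was small beside the spread between bees, as given below. One library stood apart from its label. A caste score, built after the values were seen from 23 genes higher in foragers and 38 genes higher in nurses in the field pools (Kr-h1 left out), placed forager C21-F3 at -0.17, inside the nurses' range of -2.58 to 1.49, while the other 29 apiary foragers lay between 1.80 and 3.02. The main Kr-h1 differences and tests that include this bee are given with and without it. Other values, among them those of other genes and their correlations with Kr-h1, include it.

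Foragers had more Kr-h1 than nurses in every colony of both studies. The forager and nurse tables were scaled separately by the authors, so a level across castes is the log2 CPM of Kr-h1 minus the library's median log2 CPM over genes in both tables, and it is a description with no test. On this scale the field forager pool exceeded the nurse pool of the same colony by 1.50 ± 0.69 (SD, n = 9 colonies), in 9 of 9 colonies. That is a 2.83-fold higher level relative to the library median. In the apiary the difference between colony means was 1.43 ± 0.81 (SD, n = 6 colonies), or 2.70-fold, in 6 of 6 colonies, and 1.51 ± 0.89 without forager C21-F3. The background matters for these counts: 4.19% of 10734 genes were higher in foragers in every field colony, and 18.0% of 11151 genes were so in every apiary colony. The size of the difference set Kr-h1 further apart, since 26 genes (0.242%) had a larger forager excess in the field and 53 genes (0.475%) in the apiary.

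**Figure D1:**
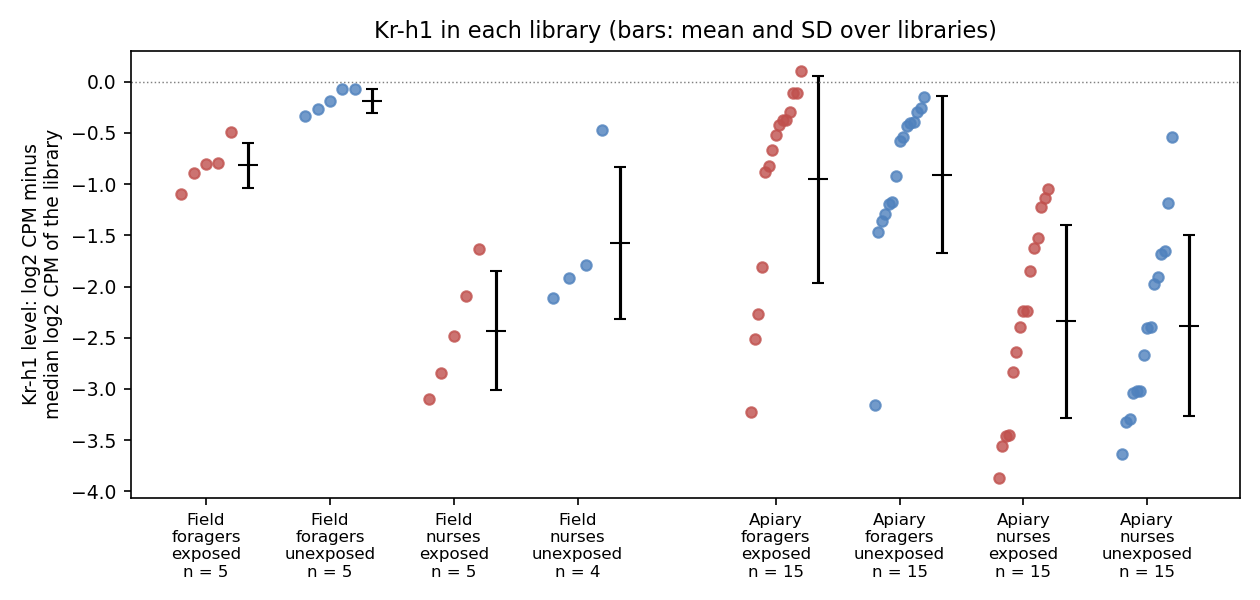
Kr-h1 in each of the 79 libraries, as log2 CPM minus the median log2 CPM of the library (y axis), by study, caste and exposure. Points are libraries (pools of 5 brains in the field, single bees in the apiary) and bars are mean and SD; the 5 exposed field forager pools sit between -1.10 and -0.50, below the unexposed ones at -0.33 to -0.07, while in the apiary exposed and unexposed bees of a caste overlap over most of their ranges.

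The 8 groups fell into an order with foragers above nurses. The medians of field and apiary libraries were taken over different genes. Pools of 5 brains were also set beside single bees collected in another year, so ranks across the studies are only a description. Relative to the library median, field foragers averaged -0.82 ± 0.22 (SD, n = 5) in exposed pools and -0.19 ± 0.12 (n = 5) in unexposed pools, the highest group. Apiary foragers came next, at -0.95 ± 1.01 (n = 15) in exposed bees (-0.84 ± 0.95, n = 14, without C21-F3) and -0.91 ± 0.77 (n = 15) in unexposed bees. Exposed field foragers and both apiary forager groups differed by less than the spread within the apiary groups. Field nurses averaged -2.43 ± 0.58 (n = 5) in exposed pools and -1.58 ± 0.74 (n = 4) in unexposed pools. Apiary nurses averaged -2.34 ± 0.94 (n = 15) in exposed and -2.38 ± 0.88 (n = 15) in unexposed bees, and these groups and the exposed field nurses differed by less than their spread.

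Within each exposure the field castes did not overlap. All 5 exposed forager pools lay above all 5 exposed nurse pools, which 5.23% of genes also did, and all 5 unexposed forager pools lay above all 4 unexposed nurse pools, which 2.90% of genes also did. Over both exposures the 5 exposed forager pools lay below the nurse pool of 2J7, so 85 of 90 pairs had the forager higher. Kr-h1 was thus not among the 0.661% of genes with every forager pool above every nurse pool. The colony difference ranged from 0.29 in colony 2J7 to 2.60 in colony 2J3. Colony 2J7 stood out through its nurse pool, with -0.19 in foragers and -0.48 in nurses, and colony 2J3 had the lowest nurse pool, with -0.50 in foragers and -3.10 in nurses. The difference averaged 1.61 ± 0.72 (SD, n = 5) in colonies near corn and 1.36 ± 0.73 (n = 4) in those away from it.

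Single apiary bees of the castes overlapped. Of 900 pairs of 1 forager and 1 nurse, the forager was higher in 787. Of 30 foragers, 15 lay above every nurse, and 7 of 30 nurses lay below every forager. The share of genes that reach these counts was not taken. Kr-h1 was not among the 0.0448% of genes with every forager above every nurse. Without C21-F3 the forager was higher in 774 of 870 pairs. All 5 foragers exceeded all 5 nurses in colonies C23 and C26, as 2.92% of genes did in C23 and 10.1% in C26. The colony difference was 1.93 in C21, 1.63 in C23 and 0.61 in C28 among exposed colonies, against 0.87 in C25, 2.72 in C26 and 0.83 in C27 among unexposed ones. It averaged 1.39 ± 0.69 (SD, n = 3) in colonies fed clothianidin and 1.47 ± 1.08 (n = 3) in the unfed ones. Without C21-F3 the difference in C21 was 2.40 and the mean of the fed colonies 1.55 ± 0.90 (SD, n = 3), which turned the order of these means round; they differed by less than their spread either way. With all bees, colony C26 had both the highest forager mean and the lowest nurse mean of the apiary, and colony C28 had the lowest forager mean. Without C21-F3 the highest forager mean was that of C21, at 4.94 log2 CPM against 4.60 in C26.

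**Figure D2:**
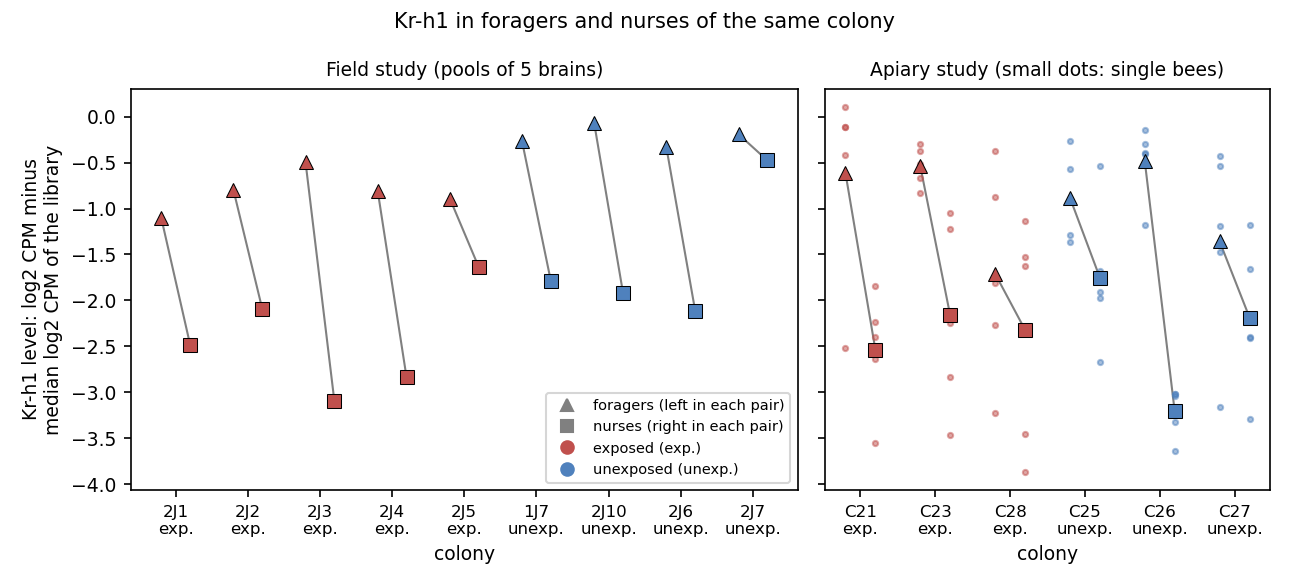
Kr-h1 in foragers (triangles, left in each pair) and nurses (squares, right) of the same colony, as log2 CPM minus the median log2 CPM of the library (y axis), for 9 field colonies and 6 apiary colonies (x axis). Large symbols are pools or means over 5 bees, small dots are single apiary bees, and every line falls from foragers to nurses, least in field colony 2J7 (0.29) and most in apiary colony C26 (2.72).

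Near corn, field foragers had less Kr-h1, the value that chose the gene. The exposed pools had 4.18, 4.54, 4.79, 4.51 and 4.41 log2 CPM in colonies 2J1 to 2J5, against 5.03, 5.21, 5.22, 4.95 and 5.08 log2 CPM in unexposed colonies 1J7, 1J9, 2J10, 2J6 and 2J7. Every exposed pool lay below every unexposed pool, as did 534 of 10976 genes (4.87%), and the difference was -0.61 (SE 0.11). In CPM the pools averaged 22.6 ± 3.46 (SD, n = 5) exposed and 34.4 ± 2.79 (SD, n = 5) unexposed. Of all genes in this table, 6.39% had a larger difference in absolute size, and limma called 0 of 10976 genes (0.00%) at an adjusted p of 0.05, with 2657 genes at an unadjusted p under 0.05 and 0 called by limma-voom. This count rested on pool 2J1, since limma called 2921 genes without it. The study used edgeR for this comparison and did call genes, Kr-h1 among them, and it called genes in its other exposure comparisons too. The count of 0 therefore belongs to limma with these settings.

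Field nurses, which had no part in the choice of the gene, had a lower mean near corn that did not pass the test. Exposed nurse pools had 2.80, 3.16, 2.15, 2.37 and 3.57 log2 CPM in colonies 2J1 to 2J5, against 3.49, 3.12, 4.74 and 3.31 log2 CPM in unexposed colonies 1J7, 2J6, 2J7 and 2J10. The groups overlapped: 3 of 5 exposed pools lay below every unexposed pool, and in 4 of 20 pairs the exposed pool was the higher. The share of genes that reach these counts was not taken. The means were 2.81 ± 0.58 (SD, n = 5) exposed and 3.67 ± 0.73 (SD, n = 4) unexposed. The difference was -0.86 log2 (SE 0.37, 95% interval -1.69 to -0.02), with p = 0.0448 before adjustment and 0.658 after Benjamini-Hochberg adjustment over all genes in limma. In this table limma called 0 of 10852 genes (0.00%), as limma-voom did, with 454 genes at an unadjusted p under 0.05. Pool 2J7 decided much of the size: it was the highest nurse pool and the only one in its sequencing lane, and the difference was -0.50 without it.

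**Figure D3:**
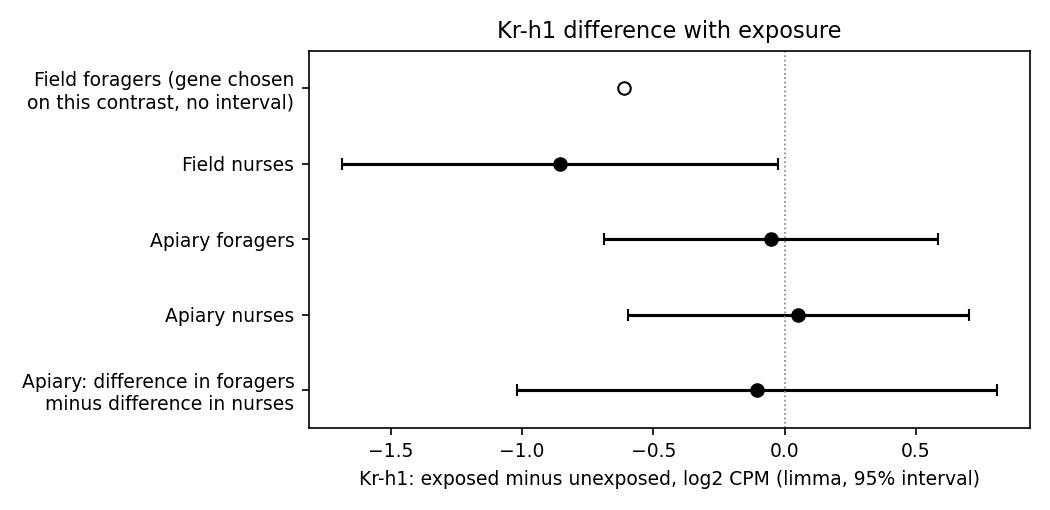
Difference of Kr-h1 between exposed and unexposed libraries (x axis, log2 CPM) in each caste and study, with the apiary difference of differences in the bottom row. Apiary intervals treat single bees, not colonies, as replicates. Filled points carry a 95% interval from limma and the open point, for the field foragers that chose the gene, carries none; the field points lie at -0.61 and -0.86 and the 3 apiary points within 0.11 of 0, with intervals that reach beyond -0.59 on the low side and 0.58 on the high side.

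In the apiary experiment, Kr-h1 did not differ detectably with clothianidin in either caste. Exposed foragers ranged from 1.84 to 5.19 log2 CPM with a median of 4.57, against 1.93 to 4.93 with a median of 4.499 in unexposed foragers, and the exposed bee was the higher in 122 of 225 pairs. The means were 4.13 ± 1.01 (SD, n = 15) exposed and 4.18 ± 0.77 (SD, n = 15) unexposed, a difference of -0.05 (SE 0.31, 95% interval -0.69 to 0.58, adjusted p = 0.968 in limma), where 1 of 11381 genes (0.00879%) was called, against 0 on colony means and up to 68 without a single colony (C23). Without forager C21-F3 the difference was 0.06 (adjusted p = 0.975 in limma).

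Exposed nurses ranged from 1.29 to 4.08 log2 CPM with a median of 2.87, against 1.52 to 4.55 with a median of 2.74 in unexposed nurses. The groups overlapped over nearly their whole range, with the exposed bee higher in 121 of 225 pairs. The means were 2.81 ± 0.94 (SD, n = 15) exposed and 2.76 ± 0.87 (SD, n = 15) unexposed, a difference of 0.05 (SE 0.32, 95% interval -0.60 to 0.70, adjusted p = 0.954 in limma), where 6 of 11271 genes (0.0532%) were called. The count was 0 with colony as a random block, on colony means, with a lane term or without C28, while 157 genes were called without C23. Since whole colonies were fed, the interval was wider with colony as a random block, -0.74 to 0.63 in foragers and -0.90 to 1.01 in nurses. On colony means it was -0.89 to 0.78 in foragers and -0.79 to 0.89 in nurses. The forager intervals include the field foragers' difference of -0.61. The field nurses' difference of -0.86 lies inside the nurse interval with the block. It lies outside the nurse intervals on colony means and on single bees. The change with clothianidin differed between castes by -0.11 (SE 0.46, 95% interval -1.02 to 0.81, adjusted p = 0.930 in limma), a term for which 0 of 11151 genes (0.00%) were called and 1581 had an unadjusted p under 0.05. Sequencing run moved with exposure: 7 exposed foragers and no unexposed one came from the smaller of the runs. In the larger run the means were 4.42 ± 0.82 (SD, n = 8) in exposed foragers and 4.18 ± 0.77 (n = 15) in unexposed foragers, a difference of 0.24 (0.51 without C21-F3, n = 7 exposed). In nurses of that run the difference was 0.25, with 9 exposed and 14 unexposed bees.

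Single bees of 1 colony and caste differed widely in Kr-h1. The SD between bees of a colony was 0.83 log2 in foragers (0.72 without C21-F3) and 0.85 in nurses. With all bees these SDs were higher than for 97.2% and 97.1% of genes with a mean of at least 1 CPM, against a median SD over those genes of 0.20 in foragers and 0.19 in nurses. Counting error alone would give an SD of 0.062 in foragers and 0.11 in nurses. Of the spread among bees of the same caste and exposure, 27.7% in foragers and 24.9% in nurses lay between colony means. Spread between bees alone gives part of such a share, and that part was not subtracted.

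Among exposed foragers, colony C21 had 5.19, 4.98, 2.58, 4.97 and 4.65 log2 CPM, C23 had 4.26, 4.39, 4.81, 4.57 and 4.69, and C28 had 4.20, 2.79, 3.26, 1.84 and 4.72. Among unexposed foragers, C25 had 4.82, 4.18, 3.73, 4.499 and 3.77, C26 had 4.79, 4.67, 4.93, 4.70 and 3.93, and C27 had 4.59, 3.87, 1.93, 4.67 and 3.61. Most foragers lay above 3.5, and those below it were 1 bee in C21, 1 in C27 and 3 in C28, while C23 held 5 bees within a narrow range. Colonies of the same exposure were compared with an F-test in limma, which gave F = 2.59 (p = 0.059, adjusted p = 0.368) for Kr-h1, where 137 genes (1.20%) were called. Without forager C21-F3 the F was 4.47 (p = 0.00691, adjusted p = 0.149 in limma). All C21 foragers shared a sequencing lane, as did all C25 foragers, and most C28 foragers came from the smaller run. Colony and lane therefore cannot be fully told apart in this test.

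Among exposed nurses, C21 had 3.33, 1.63, 2.87, 2.48 and 2.75 log2 CPM, C23 had 3.92, 1.67, 2.91, 4.08 and 2.30, and C28 had 1.29, 3.64, 1.71, 4.05 and 3.55. Among unexposed nurses, C25 had 3.25, 2.47, 3.45, 4.55 and 3.18, C26 had 2.12, 1.85, 1.52, 2.12 and 2.12, and C27 had 3.48, 3.98, 1.82, 2.74 and 2.74. C26 nurses were uniformly low, while C28 nurses split into 2 low and 3 high bees. The same F-test for nurses gave F = 2.18 (p = 0.098, adjusted p = 0.179 in limma), in a table where 3593 genes (31.9%) were called, so colony differences in Kr-h1 passed in neither caste. Nurse colonies also largely went with lanes, as all C26 nurses shared a lane, so the called genes may differ by colony or by lane.

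Low Kr-h1 in a forager did not always come with nurse-like levels of other caste genes. Of the 3 lowest foragers, C21-F3 (2.58 log2 CPM) had a caste score of -0.17, among the nurses. Bees C28-F5 (1.84) and C27-F3 (1.93) both had a score of 2.49, above the forager median of 2.12. Over all 30 foragers the score and Kr-h1 had a Pearson r of 0.27 and a Spearman rho of 0.05, and r was 0.00 without C21-F3.

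Among nurses, bees with a higher caste score had more Kr-h1. Pearson r was 0.58 and Spearman rho 0.67 over 30 nurses, r was 0.55 in the 15 exposed and 0.70 in the 15 unexposed, and 0.70 without the 2 nurses with the most extreme scores. Within the larger sequencing run r was 0.46 (23 nurses), and in deviations from colony means it was 0.52. These values are descriptions, since the score was built with the values in view and bees of a colony share feeding and often a lane. The genes of the score that were higher in foragers and those that were higher in nurses gave r of 0.54 and 0.56, the second with the sign turned.

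**Figure D4:**
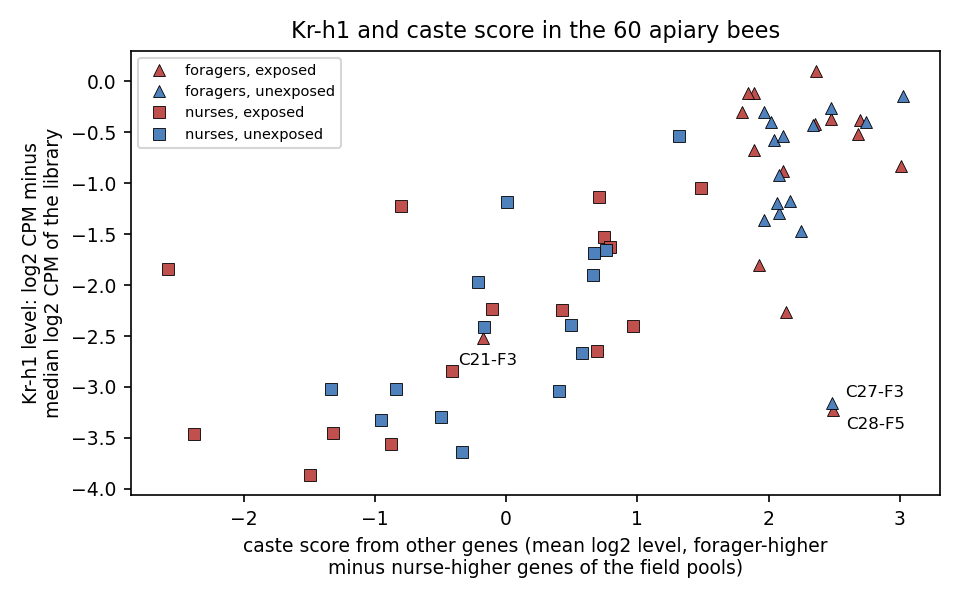
Kr-h1 (y axis, log2 CPM minus the median log2 CPM of the library) against the caste score of other genes (x axis, mean log2 level of 23 forager-higher minus 38 nurse-higher genes) in 60 apiary bees, foragers as triangles and nurses as squares. Forager C21-F3 lies among the nurses, foragers C28-F5 and C27-F3 lie low at a score of 2.49, and nurses with higher scores lie higher.

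The genes whose levels went most closely with Kr-h1 were sought over the 60 apiary bees, as Pearson r of log2 CPM after subtracting the mean of each colony and caste, among 11150 genes. The closest was GB45427, with r = 0.94 over all bees, 0.98 in foragers and 0.94 in nurses. The next was GB43418, with r = 0.86 over all bees, 0.90 in foragers and 0.81 in nurses. Neither gene is named in the sources used here, and neither is in the caste score. In the 19 field pools, which this choice did not use, the same measure after subtracting the mean of each exposure and caste gave r = 0.96 for GB45427 and 0.85 for GB43418, ranks 1 and 2 of 10733 genes.

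Both genes also had the caste difference of Kr-h1, larger in size. GB45427 was higher in foragers by 1.92 in the field and 2.12 in the apiary, and GB43418 by 2.24 and 2.21, on the scale relative to the library median. The foragers with the least Kr-h1 were low in them too: GB45427 had 1.42 log2 CPM in C28-F5, 2.05 in C27-F3 and 1.64 in C21-F3, against a mean of 4.27 over all foragers. The lowest r with Kr-h1 was -0.67 for GB41247 and -0.66 for GB46130, but both had r of 0.17 in the field pools. In all, 242 genes had r above 0.5 and 154 had r below -0.5. These correlations rest on bees that share lanes and colonies, and no test was attached to them. They include forager C21-F3 and were not taken without it.

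**Figure D5:**
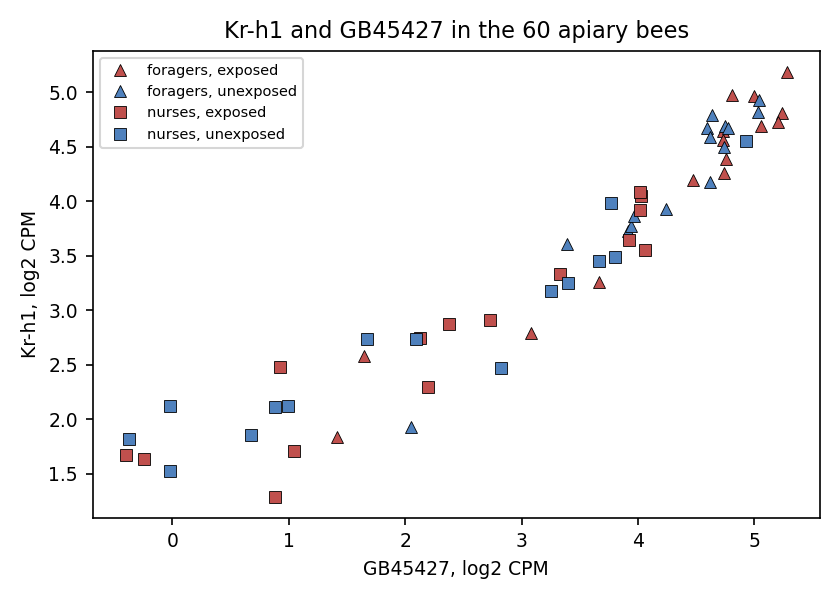
Kr-h1 (y axis, log2 CPM) against GB45427 (x axis, log2 CPM) in 60 apiary bees, foragers as triangles and nurses as squares, with exposed and unexposed bees in different colours. The points form a single band in which low foragers lie with the nurses (r = 0.94 after subtracting colony and caste means).

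The other 15 transcription factors that the study chose with Kr-h1 on the field foragers mostly had the opposite sign near corn and smaller caste differences. The list was chosen on these samples, so its field forager direction is no independent evidence: there 14 were higher and 1 lower near corn, with a median of 0.62 against 0.01 over all genes. The lower one besides Kr-h1 was LOC411780, a zinc finger gene, at -0.38 (SE 0.08). In field nurses 14 had higher and 1 had lower means near corn, with a median difference of 0.34 against -0.01 over all genes, and 0 of 15 passed the test. Those with the lowest p were LOC410253 and LOC724983. LOC410253, named ataxin-2 homolog by the study and paired there with the fly transcription factor gene vrille, was at 0.46 (SE 0.24, adjusted p = 0.658 in limma). LOC724983, a retinal homeobox gene, was at 0.39 (SE 0.22, adjusted p = 0.658 in limma). LOC411780 differed by -0.09 (SE 0.08, adjusted p = 0.668 in limma) in the same pools.

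In the apiary, 11 of the 15 had higher and 4 lower means in exposed foragers (median 0.07, against 0.00 over all genes), and 1 had a higher and 14 had lower means in exposed nurses (median -0.09, against 0.00). None passed the test in either caste, adjusted or not. The lowest p in foragers belonged to LOC113218618, a tramtrack-like gene, at 0.17 (SE 0.09, adjusted p = 0.569 in limma), and to Mblk-1, a mushroom body transcription factor that also responds to ecdysone, at 0.28 (SE 0.16, adjusted p = 0.571 in limma). In nurses they were Foxp, a forkhead gene, at -0.17 (SE 0.14, adjusted p = 0.594 in limma), and LOC726709, an uncharacterized gene, at -0.11 (SE 0.10, adjusted p = 0.595 in limma). LOC411780 differed by -0.06 (SE 0.05) in foragers and by -0.02 (SE 0.05) in nurses.

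For the difference between the castes in the change with clothianidin, 12 of the 15 were positive and 3 negative, with a median of 0.18 against 0.00 over all genes and 0 called. Those with the lowest p were LOC113218618 at 0.25 (SE 0.15, adjusted p = 0.433 in limma) and LOC100577139, a Lilliputian homolog, at 0.29 (SE 0.17, adjusted p = 0.433 in limma). LOC411780 was at -0.04 (SE 0.07).

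None of the 15 had a caste difference as large as that of Kr-h1. In the field 11 of 15 were higher in foragers, as were 47.4% of all genes, and 0 of 15 in every colony, as were 4.19% of all genes, with a median of 0.14 against -0.01 over all genes. In the apiary 15 of 15 were higher in foragers, as were 54.1% of all genes, and 9 of 15 in every colony, as were 18.0% of all genes, with a median of 0.46 against 0.02 over all genes. The largest was LOC410468, hairy, a transcriptional repressor, at 0.70 in the field and 0.97 in the apiary, and LOC411780 had 0.07 and 0.27. Over the 60 bees their r with Kr-h1 ran from -0.48 to 0.24 and was mostly negative. In the 19 field pools it was mostly positive, from -0.05 for LOC551364 to 0.41 for LOC410347. LOC726709, the lowest over the bees, had 0.23 in the pools, so the apiary sign did not carry over.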

How the data were processed

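RNA from brains was sequenced by the study as stranded paired-end libraries. The authors trimmed reads with Trimmomatic 0.36, aligned and counted them with STAR on amel 4.5 with Official Gene Set v3.2, dropped genes with low counts and scaled the rest in edgeR under R 3.6.3; the deposited values are log2 CPM, in 4 tables scaled separately by study and caste. Since the unit is log2 CPM, limma 3.58.1 in R 4.3.3 (linear model, empirical Bayes with a trend, two-sided, Benjamini-Hochberg over all genes of a table, adjusted p under 0.05) was used on all genes, after a check on simulated data. All 875432 values below 20000 reads came within 0.1 of whole reads, and limma-voom on these reads was an alternative. Libraries are the replicates, as in the study; p-values for apiary bees treat bees of a colony as independent. No 2 libraries held identical values.

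The castes of an apiary colony share that colony. Their deviations from group means correlated at 0.23 to 0.46 over genes in all 6 colonies, which bears on the interaction fit with a replicate block.

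Kr-h1, the transcription factors and all lists were chosen with earlier results of these data known. The genes named were LOC411780, the 2 factors with the lowest p per contrast, and the 2 highest and 2 lowest correlations with Kr-h1. Other juvenile hormone genes and cell type markers were not analysed here, because 0 of 11525 gene IDs matched the reference table used here. The IDs give no coordinates or sequence here. The columns of 3 unexposed apiary foragers of C25 and C27 carry shortened names, so they were tied to their group and colony only. Alternatives tried were a filter at 1 CPM, log2(CPM + 1), equal library medians, no trend, limma-voom, lane or run, colony means, a colony block and leaving out each pool or colony.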

Additional observations from a re-analysis of the deposited data

Results flagged for a closer look

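Kr-h1 was checked for single libraries far from the rest of their group in 16 groups of 4 or 5 libraries (the 4 field groups and the 12 colony and caste groups of the apiary), where chance alone flags about 5% of groups. In the foragers of colony C21, bee C21-F3 had 2.58 log2 CPM and the nearest bee 4.65, a gap of 0.79 of the group's range. In the foragers of colony C26, bee C26-F5 had 3.93 log2 CPM and the nearest bee 4.67, a gap of 0.74 of the range. C21-F3 is also the forager with the caste score among the nurses. The field nurse pool 2J7, at 4.74, had a gap of 0.77 of the range, below the limit of 0.829 for 4 pools.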

How the results depend on the processing

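The forager excess kept its direction in both studies, at 1.50 to 1.56 (field) and 1.37 to 1.51 (apiary) under the other scalings or without C21-F3, and at 1.36 to 1.65 and 1.17 to 1.60 without each colony. Field foragers gave -0.64 to -0.59 under other settings and -0.69 to -0.54 without each pool. Field nurses gave -0.91 to -0.42 (the last with a lane term) and -1.05 to -0.50 without each pool, with no adjusted p below 0.421 in limma. The apiary exposure differences, near 0, changed sign readily and passed no test. Foragers gave 0.79 with a lane term, which compares 1 exposed with 3 unexposed bees, 0.24 in the larger sequencing run alone, 0.0577 without C21-F3 (chosen after seeing the data), and -0.28 to 0.33 without each colony, positive without C26 (0.16) or C28 (0.33). Nurses gave -0.0286 by limma-voom, -0.71 with a lane term, and -0.35 to 0.36 without each colony, negative without C23 (-0.03) or C26 (-0.35). The interaction was -0.11 with a replicate block of colony (SE 0.45, adjusted p = 0.924 in limma), 0.0053 without C21-F3, and -0.42 to 0.51 without each colony, positive without C26 (0.51) or C28 (0.29); the block changed no call. Between-colony tests kept their side of the threshold, with F from 2.47 to 4.47 in foragers and 2.12 to 2.26 in nurses. The causes were not tested. Counts over all genes moved more: without pool 2J1 limma called 2921 genes in field foragers, against 0 with it. Without single colonies, up to 68 genes in apiary foragers, 157 in nurses and 484 for the interaction were called. The field had 4 or 5 pools a group and the apiary 3 colonies a group. Counting error was small beside the spread between bees. Whether the number of bees or of colonies limits the precision more was not tested.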
